A study of Homo sapiens with 12 samples.

Results

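The F-box protein genes measured here are the genes whose symbol begins with FBXO, FBXL or FBXW followed by a number. They were taken from the array rows that name exactly 1 such symbol, with pseudogenes left out and the row of highest mean signal kept where a gene had more than 1. This gave 56 genes among the 18417 genes measured, of which 33 were FBXO, 14 FBXL and 9 FBXW genes. The reference list of protein-coding genes holds 63 symbols of these names, and 7 of them are not among the 56. The rows of FBXL6, FBXO10 and FBXW10 carried a second symbol, and the others were not analysed here. Within this family, genes and rows were picked by name and mean signal, not by differences between groups. The family itself was chosen with earlier results of these data known.

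An F-box protein is the substrate receptor of an SCF ubiquitin ligase. Its F-box motif binds SKP1, which joins it to the cullin CUL1 and the RING protein RBX1, and the rest of the protein holds the substrate, often after that substrate has been phosphorylated. FBXW proteins recognise substrates through WD40 repeats, FBXL proteins through leucine-rich repeats, and FBXO proteins through a variety of other domains. SCF ligases are best known for timed destruction of cyclins, CDK inhibitors and signalling proteins.

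RNA was measured on 12 Affymetrix Human Gene 1.0 ST arrays, 3 for each of 4 groups of HEK293T cells, a line of human embryonic kidney cells that carries the SV40 large T antigen. The cells received plasmids for a non-targeting shRNA (shCTRL), shRNAs against UBE4B (shUBE4B), shRNAs against LSD1 (shLSD1), or those against UBE4B and LSD1 together (shUBE4B+shLSD1), and were lysed 78 h later. UBE4B is a U-box ubiquitin ligase that lengthens ubiquitin chains, and LSD1, encoded by KDM1A, is a histone demethylase. The study also describes a plasmid for a misfolding mutant of SOD1 in all groups, which the sample labels do not name. The comparisons ask how the RNA of each F-box gene differs between each knockdown and the control, and between the double and the single knockdowns. The 3 arrays of each group are labelled as biological replicates, and the plasmids were transfected transiently.

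The values are log2 signals, and 1 unit is a doubling of signal. UBE4B fell by 1.40 in shUBE4B (limma adjusted p = 7.88e-06) and fell by 1.42 in shUBE4B+shLSD1 (limma adjusted p = 3.43e-06), and KDM1A fell by 1.26 in shLSD1 (limma adjusted p = 7.34e-05) and fell by 1.12 in shUBE4B+shLSD1 (limma adjusted p = 3.35e-05), as the labels say. Of 7 genes listed as markers of HEK293T cells, all lay between the percentiles 40.7 and 97 of all genes by mean signal, and 10 markers of blood, liver, muscle, fibroblast and endothelial cells lay between the percentiles 3.88 and 33.5. The mean log2 signal of those 10 markers was 5.58 to 5.77 over the control arrays, 5.57 to 5.61 over the shUBE4B arrays, 5.65 to 5.67 over the shLSD1 arrays and 5.58 to 5.77 over the shUBE4B+shLSD1 arrays. Array medians lay between 7.00 and 7.06. Of the control arrays, replicate 2 was the farthest from its group mean for 30 of the 56 F-box genes, against 11 and 15 for the other control arrays. The median SD of the F-box genes was 0.15 in shCTRL, 0.06 in shUBE4B, 0.07 in shLSD1 and 0.08 in shUBE4B+shLSD1. Their median absolute deviation from the group mean was 0.08, 0.11 and 0.08 on control replicates 1, 2 and 3, and 0.04 to 0.06 on the arrays of the other groups. Calls against the control that were lost or gained without control replicate 2 are named with the results, as are the values it moved most among the genes described. Without it 8.93% of the F-box genes were called in shUBE4B, 1.79% in shLSD1 and 7.14% in shUBE4B+shLSD1, beside 6.66%, 1.08% and 8.41% of all genes.

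The 4 F-box genes that differed between shUBE4B+shLSD1 and shCTRL are shown here with the 250 bases before their transcription start, because their RNA moved and the stretch before the start is where promoter motifs are read. The sequences are those of RefSeq on build GRCh38.p14 and run 5′ to 3′ on the strand of the gene. FBXL12 lies at chr19:9819080-9819329 on the minus strand, FBXO28 at chr1:224113861-224114110 on the plus strand, FBXW8 at chr12:116910700-116910949 on the plus strand and FBXW11 at chr5:172006639-172006888 on the minus strand. Capitals mark the matches to the motifs searched.
FBXL12: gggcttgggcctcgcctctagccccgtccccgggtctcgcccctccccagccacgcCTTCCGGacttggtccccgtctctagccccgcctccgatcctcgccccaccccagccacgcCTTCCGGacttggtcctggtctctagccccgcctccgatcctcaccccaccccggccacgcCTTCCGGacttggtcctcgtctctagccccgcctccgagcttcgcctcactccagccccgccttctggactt
FBXO28: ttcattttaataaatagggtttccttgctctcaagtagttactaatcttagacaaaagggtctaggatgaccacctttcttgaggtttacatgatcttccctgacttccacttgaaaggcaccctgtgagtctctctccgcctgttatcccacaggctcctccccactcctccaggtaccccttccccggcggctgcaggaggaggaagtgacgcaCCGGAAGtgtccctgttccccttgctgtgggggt
FBXW8: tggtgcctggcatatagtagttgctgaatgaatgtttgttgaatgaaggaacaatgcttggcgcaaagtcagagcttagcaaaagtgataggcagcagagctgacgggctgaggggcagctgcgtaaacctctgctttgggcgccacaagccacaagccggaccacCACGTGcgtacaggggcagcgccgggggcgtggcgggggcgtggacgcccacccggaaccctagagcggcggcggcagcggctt
FBXW11: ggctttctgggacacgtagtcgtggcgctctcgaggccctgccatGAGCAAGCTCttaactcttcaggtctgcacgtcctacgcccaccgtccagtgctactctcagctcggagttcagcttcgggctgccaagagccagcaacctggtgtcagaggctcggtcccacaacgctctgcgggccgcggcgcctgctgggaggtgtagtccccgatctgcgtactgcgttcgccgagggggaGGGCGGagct

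FBXL12 held 3 copies of the ETS motif CCGGAAG, all read on the opposite strand, and FBXO28 held 1 copy. In FBXL12 the bases on both sides of the motif recur with each copy, so the 3 copies lie in a repeated stretch. FBXW8 held 1 E-box, CACGTG, the core letters bound by MYC and related factors. FBXW11 held 1 GC box, GGGCGG, and 1 p53 half-site. A total of 8 motifs was searched on both strands, and none of them contains another. Of all 35116 promoter windows of the same length, the ETS motif was in 8.52%, the E-box in 6.34%, the GC box in 42.6% and the p53 half-site in 5.57%. The other motifs searched were the CCAAT box CCAAT (32.0% of all windows), the TATA box TATAAA (10.7%), the cAMP response element TGACGTCA (1.65%) and the FOXO motif TGTTTAC (2.98%). RefSeq windows were found for 44 of the 56 F-box genes, with 62 windows in all since some genes have several starts, and windows of 1 gene can overlap. Of these 62, 9 held the ETS motif, 5 the E-box, 40 the GC box, 1 the p53 half-site, 15 the CCAAT box, 5 the TATA box, 1 the cAMP response element and 1 the FOXO motif. The median GC content was 66.6% in the F-box windows and 58.0% in all windows. The 4 printed windows shared no motif that all of them held.

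Knockdown of UBE4B changed 6 of the 56 F-box genes, 3 in each direction. FBXO28, FBXW7 and FBXW8 rose, and FBXL12, FBXO41 and FBXL22 fell. The 6 are 10.7% of the F-box genes, beside 10.1% of all 18417 genes called in this comparison by limma at an adjusted p under 0.05, so the share of F-box genes called lay near that of all genes. Leaving out 1 array at a time gave 3 to 8 called F-box genes, the 3 without shUBE4B replicate 3, and 5 without control replicate 2. By direction, 5.59% of all genes were called higher and 4.47% lower. The median log2 change was 0.02 over the F-box genes and -0.03 over all genes. All 3 shUBE4B arrays lay beyond all 3 control arrays for 19 F-box genes, 12 above and 7 below, which is 33.9% of them, beside 30.3% of all genes. The 50 F-box genes not called had log2 changes between -0.23 and 0.31, and 44 of the 56 had a change of less than 0.2 in either direction. The 95% interval of a change reached a median of 0.18 on either side, before any adjustment over genes. The smallest change called among the F-box genes was -0.23, for FBXL22, and FBXO33 at 0.31 was not called (limma adjusted p = 0.0834). A gene not called is thus not shown to be unchanged. Since whole cultures were measured, fewer cells that express a gene and less RNA per cell cannot be told apart.

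With shRNA against LSD1 none of the 56 F-box genes was called by limma at an adjusted p under 0.05, beside 0.82% of all genes. At an unadjusted p under 0.05, 6 of the 56 F-box genes were below the threshold, beside 2465 of all 18417 genes. The t-test of the study's methods at 1.2-fold gave 0 F-box genes, a count given here without its share of all genes. All 3 shLSD1 arrays lay beyond all control arrays for 8 F-box genes (3 above and 5 below), which is 14.3%, beside 16.6% of all genes. The log2 changes ran from -0.43 for FBXL4, whose protein sits in the mitochondrial outer membrane and restrains mitophagy, to 0.19 for FBXO11, the receptor of BCL6. The limma adjusted p was 0.115 for FBXL4 and 0.315 for FBXO11. These changes were -0.52 and 0.11 without control replicate 2. Without control replicate 2, 1 gene was called lower, FBXO21, whose log2 change over all arrays was -0.22 (limma adjusted p = 0.0838).

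With both sets of shRNAs 4 F-box genes were called, which is 7.14% of the 56, beside 7.56% of all genes. FBXW11, FBXW8 and FBXO28 rose, beside 3.74% of all genes called higher, and FBXL12 fell, beside 3.83% called lower. All 3 double knockdown arrays lay beyond all control arrays for 11 F-box genes (6 above and 5 below), which is 19.6%, beside 21.9% of all genes. The median log2 change was 0.03 over the F-box genes and -0.01 over all genes, and without control replicate 2 it was 0.05 over the F-box genes. The 52 genes not called had changes between -0.31 and 0.22. All 3 comparisons with the control share the same 3 control arrays.

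**Figure D1:**
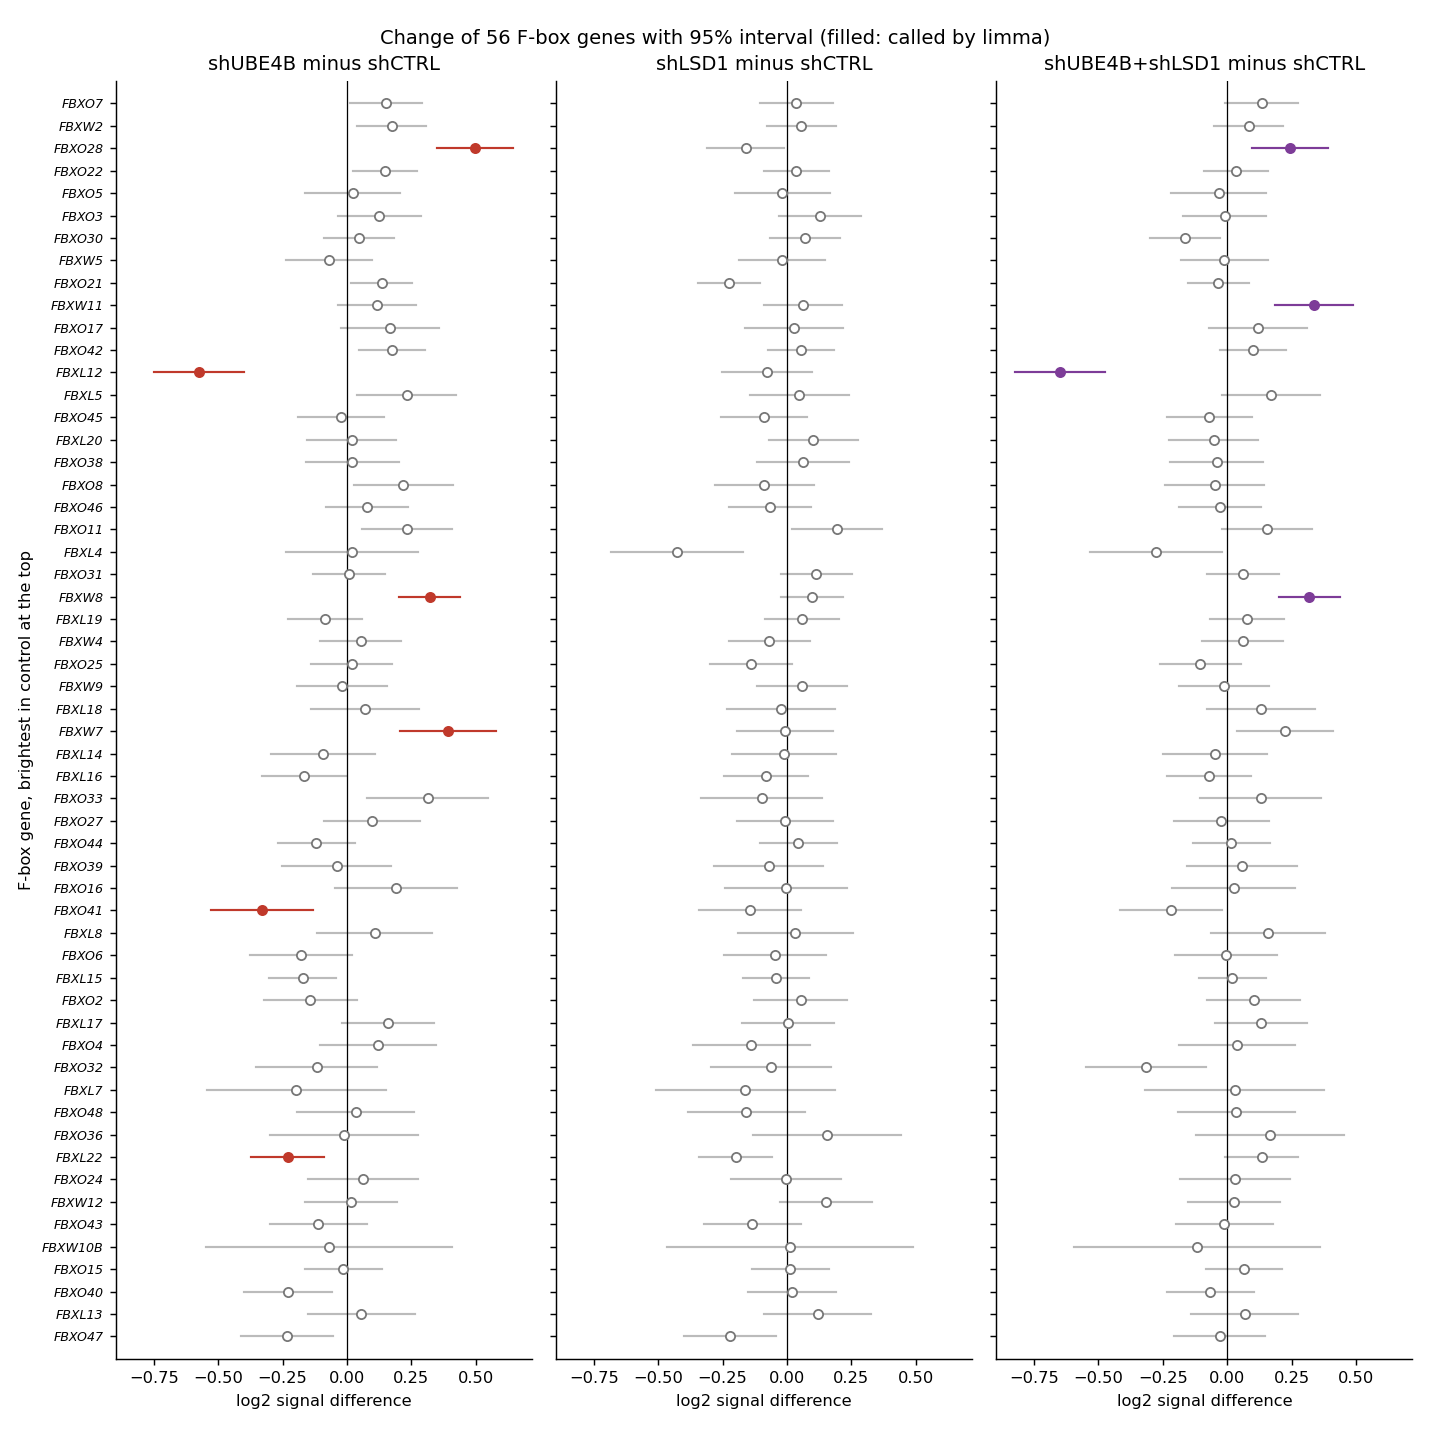
Log2 signal difference from shCTRL of each of the 56 F-box genes (one row per gene, brightest in control cells at the top) in shUBE4B, shLSD1 and shUBE4B+shLSD1, as points with 95% intervals from limma, filled where the gene was called at an adjusted p under 0.05. Filled points number 6, 0 and 4, with FBXL12 farthest to the left at -0.58 and -0.65 and FBXO28 farthest to the right at 0.50 in shUBE4B.

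Among the WD40-repeat receptors, FBXW8, FBXW7 and FBXW11 were called and the other 6 FBXW genes were not. FBXW8 pairs with the cullin CUL7 as well as with CUL1 and takes part in the turnover of cyclin D1 and IRS1. Its log2 signal was 8.55, 8.58 and 8.57 in the control arrays, 8.83, 8.88 and 8.95 with shUBE4B, 8.62, 8.68 and 8.70 with shLSD1, and 8.88, 8.87 and 8.90 with both. All arrays with UBE4B shRNA lay above all arrays without it. FBXW8 rose by 0.32 in shUBE4B (1.25-fold, standard error 0.06, limma adjusted p = 0.00395) and by 0.32 in shUBE4B+shLSD1 (limma adjusted p = 0.00356), and the double knockdown differed from shUBE4B by less than 0.01 (95% interval -0.12 to 0.12).

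FBXW7 is the receptor for cyclin E, MYC, JUN and Notch proteins. Its log2 signal was 8.04, 7.72 and 8.10 in control cells, 8.33, 8.32 and 8.39 with shUBE4B, 7.98, 7.87 and 7.98 with shLSD1, and 8.16, 8.22 and 8.16 with both. The shUBE4B arrays lay above all others, and control replicate 2 was the lowest of the 12. FBXW7 rose by 0.39 in shUBE4B (1.31-fold, standard error 0.09, limma adjusted p = 0.0136). Without control replicate 2 the change was 0.27 (limma adjusted p = 0.0207), and without shUBE4B replicate 3 it was 0.37 and no longer called (limma adjusted p = 0.0543). In the double knockdown the change was 0.22 (limma adjusted p = 0.148), and 0.11 without control replicate 2.

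FBXW11 is beta-TrCP2, a receptor for phosphorylated beta-catenin, IkB and PER proteins. Its log2 signal was 9.48, 9.55 and 9.65 in control cells, 9.60, 9.70 and 9.72 with shUBE4B, 9.56, 9.61 and 9.70 with shLSD1, and 9.84, 9.86 and 9.99 with both. The single knockdown arrays overlapped the control arrays, and the double knockdown arrays lay above all 9 others. FBXW11 rose by 0.34 in shUBE4B+shLSD1 (1.26-fold, standard error 0.07, limma adjusted p = 0.0103). The changes were 0.12 in shUBE4B (limma adjusted p = 0.298) and 0.06 in shLSD1 (limma adjusted p = 0.769), and the interaction, the double knockdown's change beyond the sum of the single ones, was 0.16 (95% interval -0.06 to 0.37, limma adjusted p = 0.499).

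Over the 9 FBXW genes, 2 were higher and none lower in shUBE4B and again 2 were higher and none lower in shUBE4B+shLSD1, with median changes of 0.05 and 0.06. That is 22.2% of the 9 called higher in each, beside the 5.59% and 3.74% of all genes given above. Each share rests on 2 genes, with FBXW8 in both, so it does not test the FBXW genes as a group. FBXW2, a receptor of the placental factor GCM1 and the brightest of the group, had a change of 0.17 in shUBE4B (limma adjusted p = 0.0931).

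Among the leucine-rich-repeat receptors FBXL12 and FBXL22 were called. FBXL12, whose substrates include the CDK inhibitor p57 and aldehyde dehydrogenases of the ALDH3 family, had a log2 signal of 9.14, 9.43 and 9.19 in control cells, 8.69, 8.70 and 8.65 with shUBE4B, 9.22, 9.13 and 9.18 with shLSD1, and 8.72, 8.61 and 8.49 with both. The 6 arrays with UBE4B shRNA lay below the 6 without it, with no overlap. FBXL12 fell by 0.58 in shUBE4B (1.49-fold lower, standard error 0.08, limma adjusted p = 0.00119) and by 0.65 in shUBE4B+shLSD1 (1.57-fold lower, limma adjusted p = 0.000429), the widest change of any F-box gene in these comparisons. The change in shLSD1 was -0.08 (limma adjusted p = 0.744). Its promoter window is the printed stretch with 3 ETS motifs, and a link between these and the fall was not tested.

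FBXL22, described in cardiac muscle at the Z-disc, had a log2 signal of 6.74, 6.69 and 6.67 in control cells, 6.44, 6.53 and 6.44 with shUBE4B, 6.60, 6.52 and 6.38 with shLSD1, and 6.83, 6.80 and 6.86 with both. Its arrays lay below the control in each single knockdown and lay above it in the double knockdown, with no overlap in any of the 3 comparisons. FBXL22 fell by 0.23 in shUBE4B (1.17-fold lower, standard error 0.07, limma adjusted p = 0.0418). That call was kept without control replicate 3, shLSD1 replicate 1 or 3 or shUBE4B+shLSD1 replicate 2 and lost without any other array, control replicate 2 among them (limma adjusted p = 0.0743). The change was -0.20 in shLSD1 (limma adjusted p = 0.186) and 0.13 in shUBE4B+shLSD1 (limma adjusted p = 0.268). Its mean signal lay at percentile 33 of all genes.

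FBXL5 binds iron and directs IRP2 to degradation. It had a log2 signal of 9.20, 9.09 and 9.46 in control cells and 9.52, 9.49 and 9.44 with shUBE4B, a change of 0.23 (limma adjusted p = 0.112) that was 0.15 without control replicate 2. Over the 14 FBXL genes the median change was -0.03 in shUBE4B, -0.02 in shLSD1 (0.01 without control replicate 2) and 0.05 in shUBE4B+shLSD1 (0.09 without it). In these comparisons 2, 0 and 1 genes were called lower and none higher. These are 14.3%, 0% and 7.14% of the 14, beside 10.1%, 0.82% and 7.56% of all genes called in either direction.

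Among the receptors with other domains, FBXO28 and FBXO41 were called. FBXO28, which ubiquitylates MYC without marking it for destruction, had a log2 signal of 10.44, 10.20 and 10.33 in control cells, 10.79, 10.83 and 10.84 with shUBE4B, 10.06, 10.19 and 10.23 with shLSD1, and 10.54, 10.57 and 10.60 with both. The shUBE4B arrays lay highest, the double knockdown arrays next, and the shLSD1 and control arrays overlapped. FBXO28 rose by 0.50 in shUBE4B (1.41-fold, standard error 0.07, limma adjusted p = 0.00109). It rose by 0.24 in shUBE4B+shLSD1 (limma adjusted p = 0.0483), a call that was lost without 10 of the 12 arrays in turn and kept only without control replicate 1 or shLSD1 replicate 1. Without control replicate 2 that change was 0.18 (limma adjusted p = 0.108). The double knockdown lay 0.25 below shUBE4B, a difference that did not pass the test (95% interval -0.40 to -0.11, limma adjusted p = 0.175).

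FBXO41 is a receptor of nerve cells. Its log2 signal was 7.34, 7.69 and 7.40 in control cells, 7.17, 7.12 and 7.15 with shUBE4B, 7.21, 7.30 and 7.48 with shLSD1, and 7.27, 7.20 and 7.31 with both. Control replicate 2 was the highest of the 12 arrays. FBXO41 fell by 0.33 in shUBE4B (1.26-fold lower, standard error 0.09, limma adjusted p = 0.0398), and without control replicate 2 the change was -0.22 and not called (limma adjusted p = 0.116). The call was also lost without any 1 of the 3 shUBE4B arrays, shLSD1 replicate 2, or shUBE4B+shLSD1 replicate 1 or 3.

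Over the 33 FBXO genes, 1 was higher and 1 lower in shUBE4B, 0 in shLSD1, and 1 higher in shUBE4B+shLSD1. These are 6.06%, 0% and 3.03% of the 33, beside 10.1%, 0.82% and 7.56% of all genes. The median changes were 0.03, -0.01 and 0.02, the last of which was -0.01 without control replicate 2. Without that array FBXO17, a receptor for glycoproteins, was called higher in shUBE4B and in shUBE4B+shLSD1. Over all arrays its changes were 0.17 (limma adjusted p = 0.239) and 0.12 (limma adjusted p = 0.5). A dimmer row of FBXO17 had changes of 0.08 and 0.22 over all arrays (limma over all transcript clusters, adjusted p = 0.548 and 0.15).

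**Figure D2:**
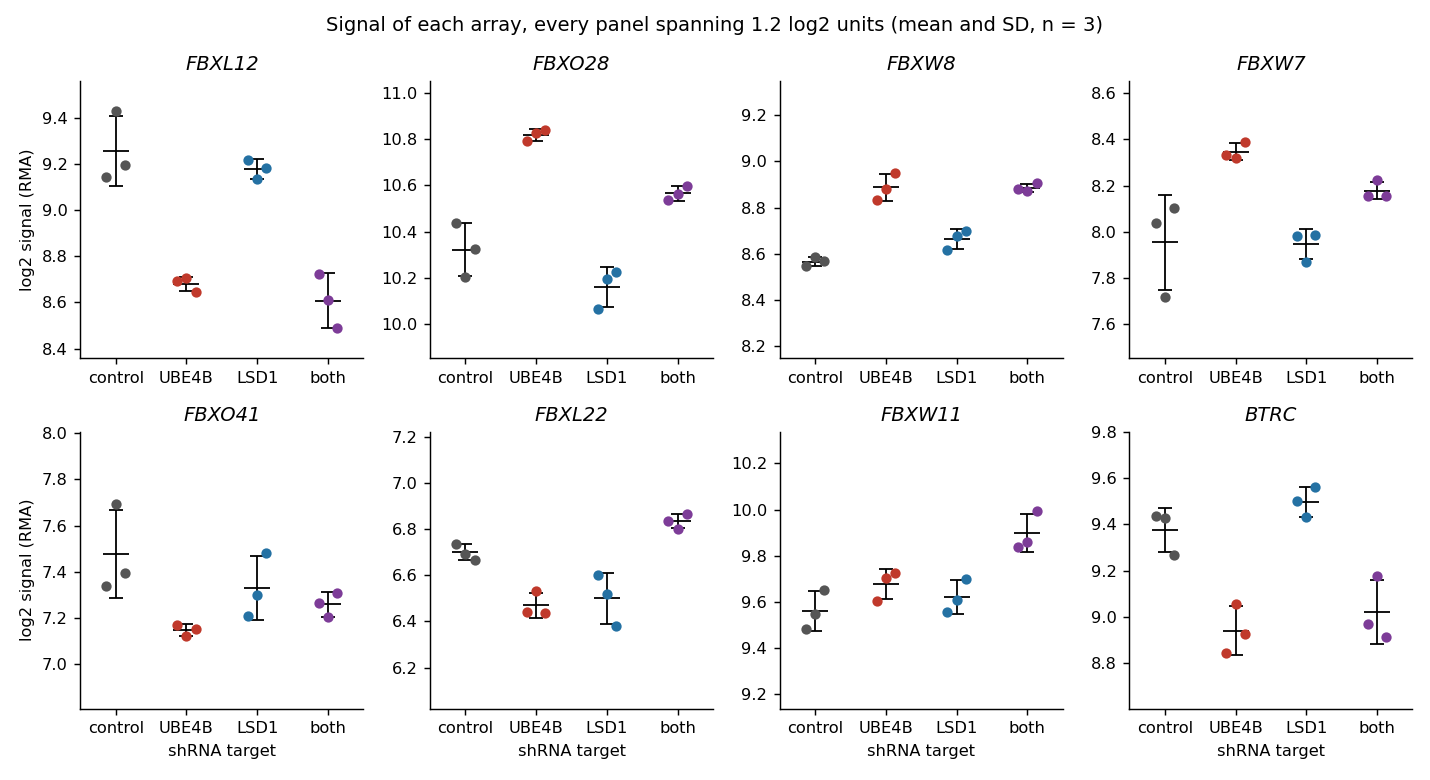
Log2 signal on each of the 12 arrays for the 7 F-box genes called in at least 1 comparison and for BTRC, by shRNA target (control, UBE4B, LSD1, both), with bars at the mean ± SD of 3 arrays and a vertical axis of the same span in every panel. The UBE4B and double knockdown points of FBXL12 lie near 8.68 and 8.61, below every control and LSD1 point, and those of FBXW8 lie above them.

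Several of the best-known receptors were measured with no call. FBXO5 (EMI1), the inhibitor of the anaphase-promoting complex, had a log2 signal of 10.30, 9.94 and 10.21 in control cells and 10.15, 10.17 and 10.20 with shUBE4B, a change of 0.02 (95% interval -0.16 to 0.21) that was -0.08 without control replicate 2. FBXO7, which acts with parkin and PINK1 in mitophagy, had changes of 0.15 in shUBE4B (limma adjusted p = 0.155), 0.04 in shLSD1 and 0.13 in shUBE4B+shLSD1. FBXO22, a receptor for KDM4 demethylases and methylated p53, had a log2 signal of 10.19, 10.17 and 10.20 in control cells and 10.32, 10.36 and 10.33 with shUBE4B. The shUBE4B arrays of FBXO22 lay above every control array, but the change of 0.15 did not pass the test (limma adjusted p = 0.119). FBXO32, the muscle atrophy receptor atrogin-1, had a log2 signal of 6.98, 7.05 and 7.28 in control cells and 6.61, 6.84 and 6.91 in shUBE4B+shLSD1, a change of -0.31 (limma adjusted p = 0.102).

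Signal over the 56 genes in control cells ran from 10.76 for FBXO7 to 4.31 for FBXO47, with a median of 7.96. The rows use different probes, so this order is that of the array signal and not of RNA amount. The 5 brightest genes were FBXO7, FBXW2, FBXO28, FBXO22 and FBXO5, and the 5 dimmest were FBXW10B, FBXO15, FBXO40, FBXL13 and FBXO47. FBXO40, a receptor of skeletal muscle, and FBXO47 had changes of -0.23 each in shUBE4B (limma adjusted p = 0.0825 and 0.0907). The changes of FBXO15, a gene of pluripotent stem cells, were between -0.01 and 0.06 in the 3 comparisons with the control. FBXW10B varied most within shCTRL, shUBE4B and shLSD1, with SDs of up to 0.39, and its changes were between -0.12 and 0.01, or between -0.01 and 0.13 without control replicate 2. Those of FBXL13 were between 0.06 and 0.12. By mean signal 34 of the 56 F-box genes lay above the median of all genes, 11 in the top 20% and 7 in the bottom 20%.

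Grouped by role, the 8 receptors of the cell cycle list held 3 of the calls in shUBE4B (FBXW7 and FBXW8 higher, FBXL12 lower) and 2 in the double knockdown (FBXW8 higher, FBXL12 lower). These are 37.5% and 25% of the 8, beside 10.1% and 7.56% of all genes. This list and the others used here were set with earlier results of these data known, so their shares do not test them. The 6 receptors listed for p53 and MDM2 had positive changes in shUBE4B in all 6 cases, with a median of 0.16, but only FBXW7 was called, against a median of -0.03 for all genes. The change of FBXL20 was -0.06 without control replicate 2, when 5 of the 6 were positive and the median was 0.14. Between the double knockdown and shUBE4B 5 of the 6 were negative, with a median of -0.08. The 5 glycoprotein receptors (FBXO2, FBXO6, FBXO17, FBXO27 and FBXO44), the 5 muscle atrophy and FOXO receptors and the 3 receptors of mitochondria and iron had no call in any comparison over all arrays. FBXO17 stands on the glycoprotein list and FBXO21 and FBXO30 on that of muscle atrophy and FOXO, and they were called without control replicate 2, FBXO30 between the double knockdown and shLSD1. Some genes stand on more than 1 of these lists.

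Between the double knockdown and shLSD1, which differ by the UBE4B shRNAs, 3 F-box genes were called, which is 5.36% of the 56, beside 2.79% of all genes. The study describes total shRNA made equal with nontargeting shRNA, so the amount of nontargeting shRNA may differ too. FBXO28 rose by 0.40 (standard error 0.07, limma adjusted p = 0.00832) and FBXL22 by 0.33 (standard error 0.07, limma adjusted p = 0.0172), beside 0.977% of all genes called higher. FBXL12 fell by 0.57 (standard error 0.08, limma adjusted p = 0.0025), beside 1.81% called lower. FBXW8 was higher by 0.22 (limma adjusted p = 0.0524) and FBXW11 by 0.28 (limma adjusted p = 0.0552), just outside the threshold. This comparison uses no control array in its means, but its spread is estimated over all 12 arrays. Without control replicate 2 it called 8 F-box genes, which is 14.3% of the 56, beside 4.39% of all genes. The genes added were FBXW7, FBXW8, FBXW11 and FBXO21 higher and FBXO30 lower. The FBXL22 call was lost without shLSD1 replicate 2 or 3 or shUBE4B+shLSD1 replicate 1 or 3.

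Between the double knockdown and shUBE4B, which differ by the LSD1 shRNAs, no F-box gene was called by limma, beside 0.147% of all genes. At an unadjusted p under 0.05 there were 11 of the 56, beside 2401 of all 18417 genes. The t-test of the study's methods at 1.2-fold gave 2, FBXL22 and FBXO8, a count given here without its share of all genes. FBXL22 was nearest to the threshold, with a change of 0.36 (95% interval 0.22 to 0.50, limma adjusted p = 0.0506), and was called without control replicate 2 or without shLSD1 replicate 3. The interaction was called for no F-box gene by limma, beside 0% of all genes. An unadjusted p under 0.05 was found for 6 of the 56, beside 2411 of all 18417 genes. The widest was that of FBXL22, 0.56 (95% interval 0.36 to 0.76, limma adjusted p = 0.149).

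**Figure D3:**
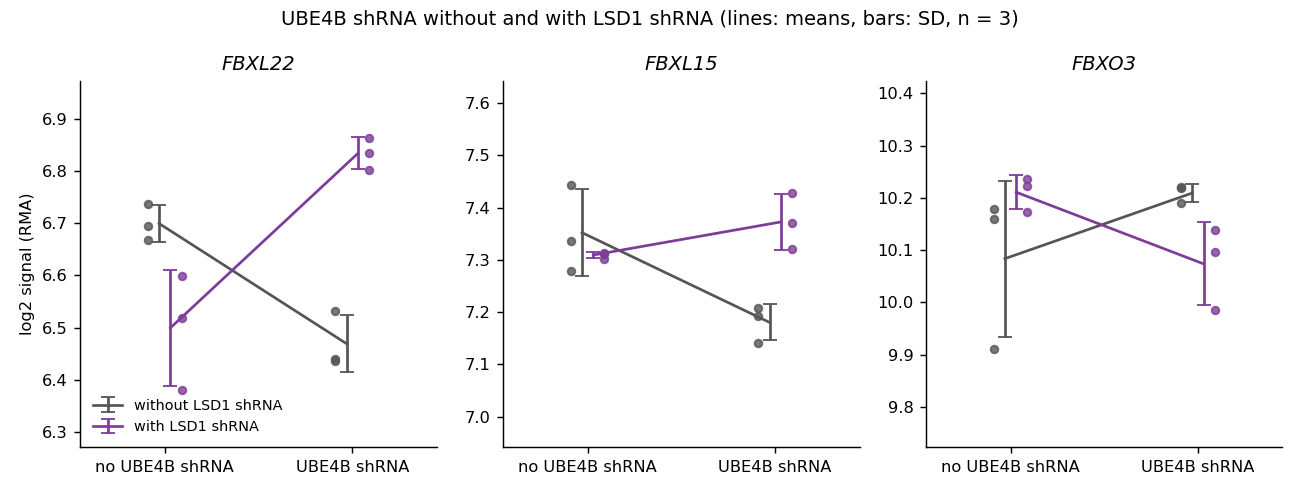
Log2 signal of FBXL22, FBXL15 and FBXO3 on single arrays, without and with UBE4B shRNA on the horizontal axis, with gray for cells without and purple for cells with LSD1 shRNA and lines between the means (bars are SD of 3 arrays). The lines of each gene cross, with interactions of 0.56, 0.24 and -0.26, none of which passed the test over all genes.

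Of the F-box genes that go by other names, 9 of 11 listed were measured. BTRC, which encodes beta-TrCP1, the paralog of FBXW11, had a log2 signal of 9.44, 9.43 and 9.27 in control cells, 8.84, 9.05 and 8.92 with shUBE4B, 9.50, 9.43 and 9.56 with shLSD1, and 8.97, 9.18 and 8.91 with both. BTRC fell by 0.44 in shUBE4B (limma adjusted p = 0.00673) and by 0.36 in shUBE4B+shLSD1 (limma adjusted p = 0.0203), where FBXW11 rose. TSPAN17, a tetraspanin gene that once carried an FBXO name, fell by 0.25 in shUBE4B (limma adjusted p = 0.0165). KDM2A, a histone demethylase with an F-box, was not called in the double knockdown over all arrays (change -0.17, limma adjusted p = 0.14) and was called lower there without control replicate 2 (change -0.23, limma adjusted p = 0.0262). SKP2, the receptor of p27, had changes of -0.13 in shUBE4B (limma adjusted p = 0.226) and -0.16 in shUBE4B+shLSD1 (limma adjusted p = 0.186).

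The partners that F-box proteins need were listed as SCF core, exchange and assembly factors, neddylation enzymes, the COP9 signalosome and SCF E2 enzymes, with 34 of 40 genes measured. In shUBE4B 4 of them rose and 1 fell, 14.7% of the 34, beside 10.1% of all genes. The lists were set with earlier results of these data known, so this share does not test them. COMMD1, a regulator of cullin ligases, rose by 0.36 (limma adjusted p = 0.00426), COPS4, a COP9 subunit, by 0.36 (limma adjusted p = 0.0279), DCUN1D3, a neddylation cofactor, by 0.34 (limma adjusted p = 0.0124) and CAND2, an exchange factor of cullins, by 0.24 (limma adjusted p = 0.0419). COPS7B, also a COP9 subunit, fell by 0.27 (limma adjusted p = 0.0499). The calls of COPS4, CAND2 and COPS7B were lost without control replicate 2, and SENP8, which matures and removes NEDD8, was called higher. The median change of the 34 was 0.10, beside -0.03 for all genes, and without control replicate 2 it was 0.02, beside -0.02. In the double knockdown COMMD1 and DCUN1D3 rose and CUL7 and CACUL1, a cullin-domain protein, fell, 11.8% of the 34, beside 7.56% of all genes. CUL7, the cullin of FBXW8, fell by 0.26 (limma adjusted p = 0.0265) and CACUL1 by 0.39 (limma adjusted p = 0.00567). SKP1, CUL1 and RBX1, the core of every SCF ligase, had changes between -0.19 and 0.14 in shUBE4B and shUBE4B+shLSD1, none of them called. Without control replicate 2 the change of SKP1 was -0.03 in shUBE4B and -0.31 in shUBE4B+shLSD1, where it was then called lower (limma adjusted p = 0.00707), while DCUN1D3 was no longer called (limma adjusted p = 0.0747). No partner was called in shLSD1, where 4 of the 34 had an unadjusted p under 0.05, beside 2465 of all 18417 genes. SKP1 and CACUL1 were called lower there without control replicate 2, with changes of -0.33 and -0.35 (limma adjusted p = 0.0263 and 0.0359).

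The list of genes whose proteins are SCF substrates held 22 measured genes of 24, FBXO5 among them. In shUBE4B 3 rose (CDKN1B, CRY1 and MDM2) and 4 fell (CCND1, WEE1, NFKBIA and KDM4A), 31.8% of the 22, beside 10.1% of all genes. The calls of CRY1 and NFKBIA were lost without control replicate 2, which left 22.7% of the 22, beside 6.66% of all genes. CCND1, encoding cyclin D1, fell by 0.66 (limma adjusted p = 0.000799), and MDM2, the ligase of p53, rose by 0.50 (limma adjusted p = 0.00407). WEE1, a kinase that holds back CDK1 and a substrate of beta-TrCP, fell by 0.35 (limma adjusted p = 0.00824), and CDKN1B, encoding p27, rose by 0.33 (limma adjusted p = 0.0133). In the double knockdown MDM2 rose by 0.39 (limma adjusted p = 0.0149) and CCND1 and WEE1 fell, 13.6% of the 22, beside 7.56% of all genes. In shLSD1 CCNE1, encoding cyclin E1, rose by 0.34 (limma adjusted p = 0.0399), which is 4.55% of the 22, beside 0.82% of all genes, and without control replicate 2 it was not called (limma adjusted p = 0.0701). The substrate list was also set with earlier results of these data known, so its shares do not test it. These are RNA levels, and SCF ligases act on the proteins.

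**Figure D4:**
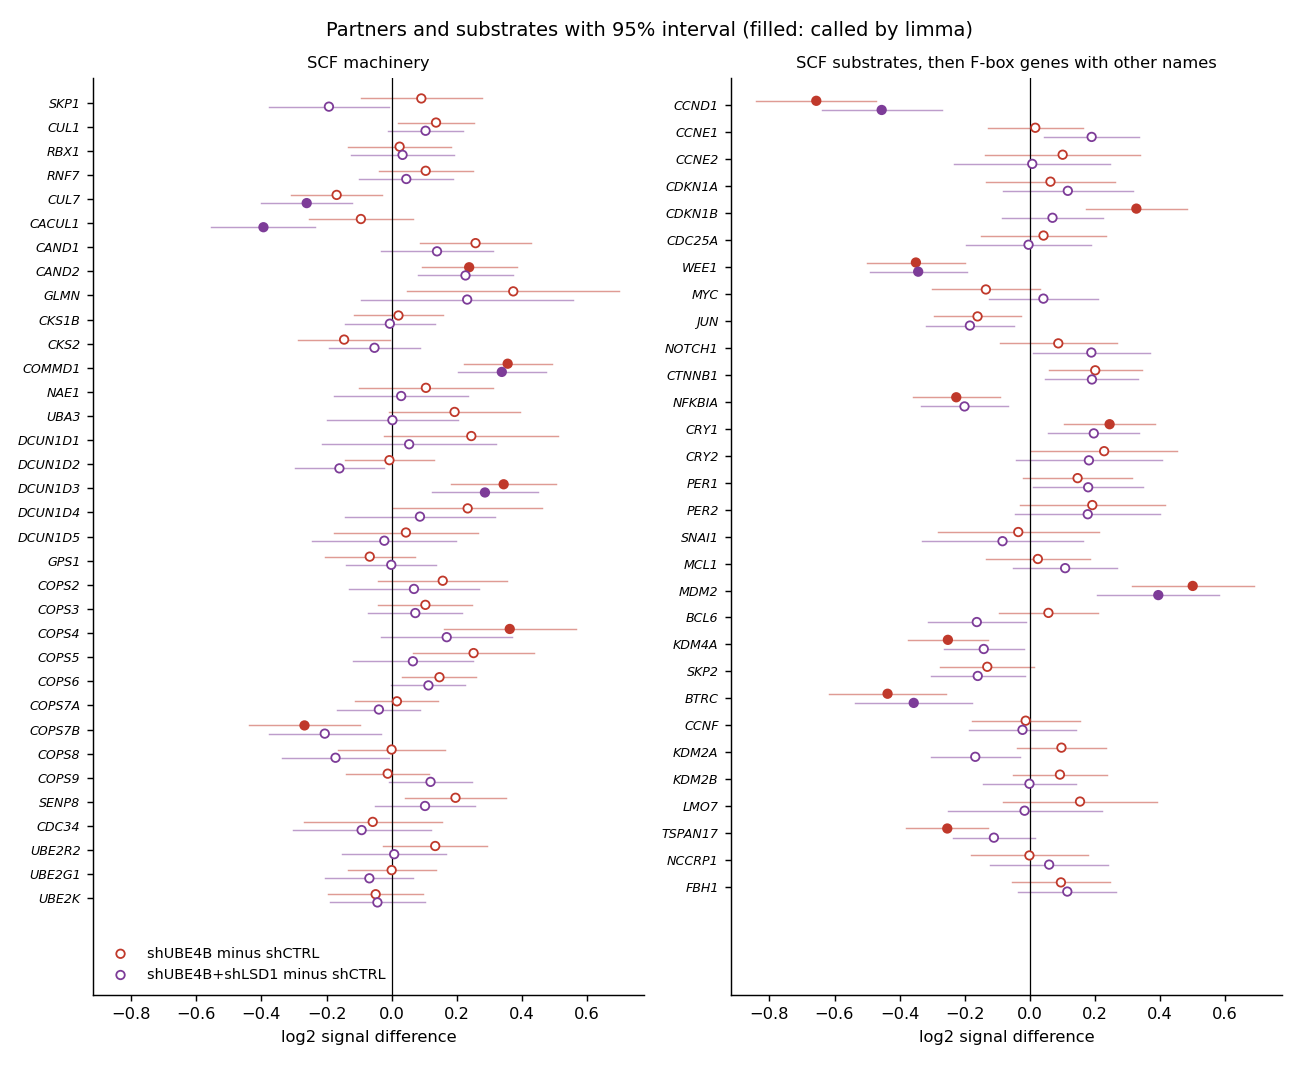
Log2 signal difference from shCTRL in shUBE4B (red) and shUBE4B+shLSD1 (purple) for the 34 measured partners of F-box proteins (left) and for the measured SCF substrates other than FBXO5 and the F-box genes with other names (right), as points with 95% intervals from limma, filled where called. CCND1 lies farthest to the left at -0.66 and MDM2 farthest to the right at 0.50, while SKP1, CUL1 and RBX1 have no filled point over all 12 arrays.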

How the data were processed

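RNA of HEK293T cells was measured on 12 arrays in 4 groups. The authors deposited log2 signals, made from the scans with RMA in Partek (background removed, arrays quantile-normalized, probes summarised), annotated on hg19. Their versions are not given in the sources used here. The scale of the arrays is set alike, so a change in total RNA would not be seen. Of 33297 transcript clusters 19460 carried 1 symbol, 1754 several, and 12083 are unnamed here. A gene was read from its cluster of highest mean, which gave 18417 genes.

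Differences between groups were tested with limma 3.58.1 under R 4.3.3 (lmFit, then eBayes, 4 group means, 8 residual and 5.13 prior degrees of freedom, no replicate block). A gene was called where its p, adjusted by Benjamini-Hochberg over 18417 genes, was under 0.05. The procedure was tested on simulated data. Alternatives were each array left out (for the gene lists, partners and substrates only control replicate 2, chosen after seeing the data), other variance, weight and scale settings, other choices of cluster, removal of the 40% dimmest genes, and the t-test of the methods. The third shUBE4B and shLSD1 labels read shUBE4B-3 and shLSD1-3, and what this marks is not given in the sources used here. Genes named were those called in any comparison, the 5 brightest and 5 dimmest, a set of well-known receptors, and up to 4 called genes of each partner list. The F-box genes and all lists were chosen with earlier results of these data known. Sequences, names and motif shares came from RefSeq tables of GRCh38.p14. Figures were drawn with Python 3.11.15 and matplotlib 3.10.9. Clusters without exactly 1 symbol were left out of tests by gene.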

Additional observations from a re-analysis of the deposited data

Results flagged for a closer look

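For 3 F-box genes the difference made by UBE4B shRNA had opposite signs without and with LSD1 shRNA, with all 3 arrays beyond the 3 arrays of the matching group each time. These are 5.36% of the 56, beside 1.17% of all 18417 genes. FBXL22 was lower with shUBE4B than in control cells and higher with both sets than with shLSD1, and its response to LSD1 shRNA, without and with UBE4B shRNA, was opposite in the same way (interaction 0.56, limma adjusted p = 0.149), as in 1.68% of all genes. FBXL15, the receptor of the ligase SMURF1, had changes of -0.17 without and 0.06 with LSD1 shRNA (interaction 0.24, limma adjusted p = 0.292). FBXO3, which directs FBXL2 to degradation, had changes of 0.13 without and -0.14 with LSD1 shRNA (interaction -0.26, limma adjusted p = 0.336). Without control replicate 2 the first of these was 0.04 and the interaction -0.18. None of these interactions passed the test over all genes.

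The row of FBXL19-AS1, an antisense RNA of the F-box gene FBXL19 that was left out of the 56 genes, was higher by 0.50 in shUBE4B (limma over all transcript clusters, adjusted p = 0.00903) and by 0.38 in shUBE4B+shLSD1 (adjusted p = 0.0339). FBXL19 itself had log2 changes of -0.09 (limma adjusted p = 0.426) and 0.08 (limma adjusted p = 0.582).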

How the results depend on the processing

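Of 13 calls of single F-box genes, 271 values were computed under the alternatives other than the t-test, which was read as counts only. All kept their direction, 224 kept their side of the threshold and 47 did not. FBXL12 in its 3 comparisons, FBXO28 in shUBE4B and against shLSD1, and FBXW8 in shUBE4B stayed past the threshold in all of them. FBXW8 and FBXW11 in the double knockdown were lost only on the 6 arrays compared. The call of FBXO28 in the double knockdown was lost in 15 of 21 alternatives, those of FBXL22 and FBXO41 in shUBE4B in 13 of 20 and 10 of 21, that of FBXL22 against shLSD1 in 5 of 20, and that of FBXW7 in 2 of 21.

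For shUBE4B against control, with 6 F-box genes called, limma on the 6 arrays compared called 3 and the methods' t-test after adjustment 0, and leaving out 1 array gave 3 to 8, the 3 without shUBE4B replicate 3. For shLSD1 against control, with 0 called, array weights, trend and robust settings, and removal of the 40% dimmest genes each gave 1 (FBXO21), the replicate block gave 1 (FBXL4), and leaving out 1 array gave 0 to 1. For the double knockdown against control, with 4 called, the 6 arrays gave 1 (FBXL12), the adjusted t-test 1 (FBXW8) and leaving out 1 array 3 to 4. Against shUBE4B, with 0 called, array weights gave 1 (FBXL22), the t-test at 1.2-fold 2, and leaving out 1 array 0 to 1. Against shLSD1, with 3 called, array weights gave 7, trend and robust settings 6, a further quantile normalization 5, the replicate block 5, removal of the 40% dimmest genes 6, the adjusted t-test 0, and leaving out 1 array 2 to 8, the 8 without control replicate 2. The interaction gave 0 in all 20 alternatives. These counts stand here without the share of all genes called in each setting. They do not show whether F-box genes gained or lost calls more than other genes did. The cause of the differences between settings was not tested. A fit on 6 arrays has fewer samples to estimate the spread, and whether this made the difference was not tested either.

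The labels do not say that a replicate number marks a shared culture or day, so the samples were not treated as paired. The correlation of deviations between arrays of the same number ran from -0.08 to 0.33 with a median of 0.13, over 0.1 in 10 of 18 pairs, and between arrays of different numbers it had a median of -0.03, over 0.1 in 2 of 36 pairs. With the replicate number as a block, 6 F-box genes were called in shUBE4B and 3 in the double knockdown against control, where FBXO28 was lost (limma adjusted p = 0.0512), and FBXL4 was gained in shLSD1. The number of arrays limits the precision.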
